A study of Mus musculus with 6 samples.

Results

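The genes of DNA replication licensing and of the replication fork were followed through sorted myeloid cells of mouse bone marrow. The set has 50 named genes, fixed as a list of symbols, and 49 of them had a probe set that names only that gene. Chaf1a, a subunit of the histone chaperone CAF-1, was the exception and is not analysed here. For each gene the probe set brightest on average over the 6 arrays was used, and all 49 passed the filter on low values, among 12732 tested genes of 18193 measured.

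Gene expression was measured on Affymetrix 3' expression arrays, with 100 ng of total RNA per sample. The cells were taken from leg bone marrow (femur and tibia) of mice carrying the Hdc-GFP reporter on a C57BL/6 background, labelled female, without a stated age. In these mice green fluorescent protein reports Hdc, the gene of the enzyme that makes histamine. All cells were sorted as positive or high for the reporter and positive for CD11b, a myeloid integrin, and were divided by Gr1, an antigen of granulocytes, into Gr1lo cells (3 arrays) and Gr1hi cells (3 arrays). The labels do not say whether replicates are separate mice or pools. A p-value here thus reflects the scatter of these samples alone, which may be technical in part.

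Before a cell enters S phase, the origin recognition complex binds DNA, and CDC6 and CDT1 load the MCM helicase there. CDC7 kinase and cyclin E kinases then switch the helicase on together with CDC45 and GINS, and primase, polymerases, the sliding clamp and ligase copy and join the strands. In marrow, early granulocyte precursors such as promyelocytes and myelocytes divide, whereas band cells and segmented neutrophils do not. E2F transcription factors are known to control many of these genes around S phase entry.

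The labels and arrays were checked first. Elane, the neutrophil elastase gene of early granulocyte precursors, stood between 11.38 and 12.02 in Gr1lo cells, against 4.05 to 5.27 in Gr1hi cells (log2 probe set values). S100a8, an abundant neutrophil gene, lay between 14.82 and 14.96 on all 6 arrays. That is near the highest value of each array (14.83 to 15.01), so its even level is a weak check. Both replicate 3 arrays stood apart from the other 4 in Xist, although all samples are labelled female. This X inactivation transcript read 10.95 in Gr1lo and 10.14 in Gr1hi on them, and no higher than 2.43 on the others. The Y-linked Eif2s3y lay between 9.02 and 10.66 on all 6, which is at odds with the female label. The Xist values set replicate 3 apart from replicates 1 and 2 beyond technical scatter. For Gr1lo replicate 3, a hyphen in the free-text label could be read as negative for GFP, while its title places it in Gr1lo. Spiked poly-A control RNAs averaged 6.36 and 6.52 on the replicate 1 arrays of Gr1lo and Gr1hi, against 5.45 to 5.82 on the others. Counts without either pair of arrays are given below.

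Transcripts of nearly the whole replication machinery were higher in Gr1lo cells. Of the 49 genes, 47 were higher and 0 lower in Gr1lo (limma with Benjamini-Hochberg adjustment over all tested genes, threshold 0.05). Across all tested genes 56.4% were called, 31.8% higher and 24.6% lower. The median difference, Gr1lo minus Gr1hi, was 3.88 on the log2 scale for the 49 genes, a 14.8-fold difference, and -0.03 for all tested genes. Differences of at least 8-fold were called in 35 of the 49, against 4.27% of all tested genes, and of at least 2-fold in 46, against 19.4%. All 3 Gr1lo arrays lay above all 3 Gr1hi arrays in 47 of the 49, against 34.8% of all tested genes. The remaining genes were Orc4, a subunit of the origin recognition complex, and Rfc2, a subunit of the clamp loader. In RNA from whole sorted samples, fewer dividing cells and less transcript per cell cannot be told apart.

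**Figure D1:**
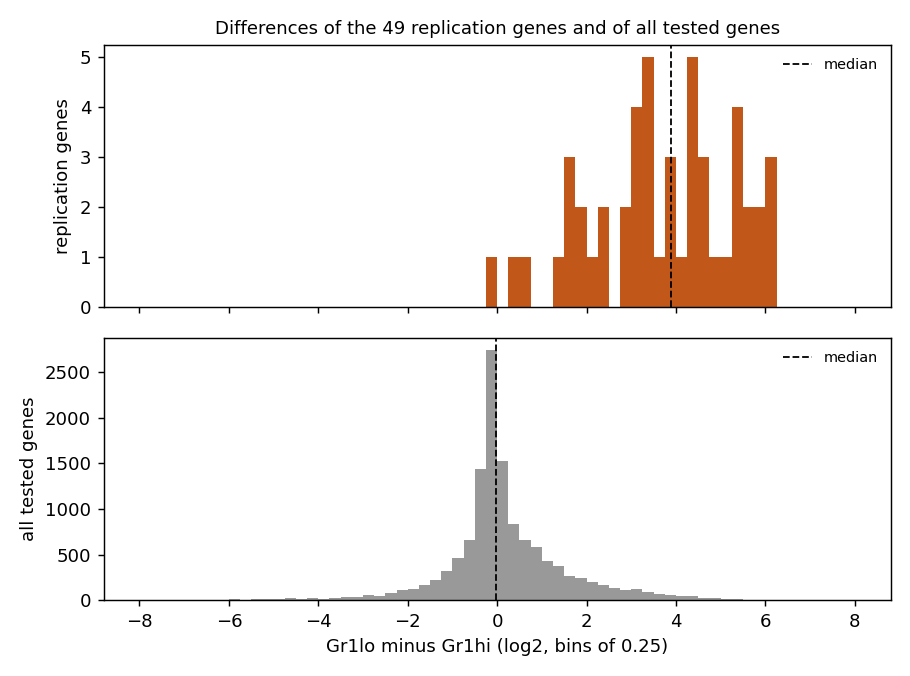
Histograms of the difference between Gr1lo and Gr1hi cells (horizontal axis, Gr1lo minus Gr1hi, log2) for the 49 replication genes (upper panel) and for all 12732 tested genes (lower panel), with the number of genes on each vertical axis and dashed lines at the medians. The replication genes centre on 3.88 and all tested genes on -0.03.

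The count did not rest on the arrays that stood apart. Without both replicate 3 arrays 47 genes were higher and 0 lower, and the same counts held without both replicate 1 arrays, a check chosen after seeing the data. Scaling shifts all genes alike. Over all tested genes the median difference became -0.70 after centring every array on the median of its tested genes (median centring). It became 0.25 after centring on the spiked hybridization controls (control centring). With median centring 46 of the 49 were higher and 2 lower, Orc4 and Rfc2, against 18.2% and 65.5% of all tested genes, of which 83.7% were called. With control centring 48 were higher and 0 lower, against 38.2% and 14.1% of all tested genes, of which 52.3% were called.

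Promoters of the genes were read from RefSeq windows of mouse assembly GRCm38.p6, which run from 250 bases before to 50 bases after a transcription start. Windows were listed for 41 of the 50 genes. The E2F octamers TTTCCCGC, TTTGGCGC, TTTCGCGC and TTTGCCGC were searched on both strands. They were found in windows of 17 of the 41 genes (41.5%), in 2.27% of all 32851 windows and in windows of 4.53% of the tested genes. Of genes called higher in Gr1lo, 7.46% held them. The CCAAT box, CCAAT on either strand, was found in 24 of the 41 (58.5%), against 42.4% of tested genes, 44.9% of genes called higher in Gr1lo and 37.4% of all windows. The late cell cycle hexamers TTTGAA and TTCGAA were found in 9 (22.0%), against 16.7% of tested genes, 18.0% of genes called higher in Gr1lo and 19.2% of all windows. No octamer contains a CCAAT box or a hexamer, and a match describes letters, not a bound site. The following stretches show an octamer in capitals with 20 bases on each side, for genes that bind origins (Orc1, Orc3), load or form the helicase (Cdc6, Mcm5, Mcm7), activate it (Gins3), start strands (Pola1) or remodel chromatin (Hells).
Orc1 (chr4:108579407-108579454, plus strand): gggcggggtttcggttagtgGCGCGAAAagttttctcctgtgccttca
Orc3 (chr4:34614956-34615003, minus strand): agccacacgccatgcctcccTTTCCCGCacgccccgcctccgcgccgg
Cdc6 (chr11:98907993-98908040, plus strand): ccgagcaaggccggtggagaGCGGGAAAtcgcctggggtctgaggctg
Mcm5 (chr8:75109336-75109383, plus strand): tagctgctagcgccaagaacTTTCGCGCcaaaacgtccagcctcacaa
Mcm7 (chr5:138172021-138172068, minus strand): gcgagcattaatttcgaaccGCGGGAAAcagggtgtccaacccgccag
Gins3 (chr8:95633498-95633545, plus strand): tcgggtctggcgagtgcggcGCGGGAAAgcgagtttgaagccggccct
Pola1 (chrX:93632266-93632313, minus strand): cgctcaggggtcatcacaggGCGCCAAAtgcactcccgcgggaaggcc
Hells (chr19:38930908-38930955, plus strand): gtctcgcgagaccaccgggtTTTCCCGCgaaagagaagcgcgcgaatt

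Mcm6, a helicase subunit gene, held 3 octamers before its start. Its 250 bases before the start are shown because they hold octamers and CCAAT boxes (ATTGG as read here) together, both in capitals, and the first pair of octamers overlaps.
Mcm6 (chr1:128359706-128359955, minus strand): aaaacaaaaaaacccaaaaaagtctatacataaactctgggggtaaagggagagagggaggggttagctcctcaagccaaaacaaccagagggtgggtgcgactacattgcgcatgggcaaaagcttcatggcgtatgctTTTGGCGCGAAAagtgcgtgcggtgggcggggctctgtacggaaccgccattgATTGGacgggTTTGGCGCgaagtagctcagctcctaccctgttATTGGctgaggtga

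The 17 genes with an octamer had a median difference of 4.27 (range 0.73 to 6.17), and the 23 tested genes with a window but no octamer had 3.36 (range 0.26 to 6.24). These ranges overlap almost entirely. The lowest value with an octamer (0.73) was that of Orc1, whose Gr1hi mean lay at the level of absent transcripts. The highest value without one in the window (6.24) was that of Mcm2. Whether the octamers bear on these differences was not tested.

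The origin recognition complex, whose 6 subunits mark replication origins, was among the roles with smaller differences. In it 5 genes were higher in Gr1lo and Orc4 was not called, with a median difference of 1.88. Orc6 had the largest, reading 10.20, 10.63 and 10.15 in Gr1lo replicates 1, 2 and 3, against 6.56, 7.19 and 7.33 in Gr1hi replicates 1, 2 and 3. The groups lay well apart, with a difference of 3.30 (SE 0.22, limma adjusted p = 2.01e-06). Further values in the text follow the same order of replicates. Orc4, an ATPase subunit of the complex, read 8.23, 8.50 and 8.19 in Gr1lo, against 7.81, 8.14 and 8.20 in Gr1hi. Its groups overlapped, with a difference of 0.26 (95% interval -0.11 to 0.62, limma adjusted p = 0.209). Its sign depends on the scaling: it was -0.42 (limma adjusted p = 0.034) with median centring and 0.53 (0.0441) with control centring. Its 3 other probe sets differed by -0.21 to 0.46, and none of them was called.

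Orc1, the subunit that many cell types make only around G1, read 3.44, 3.53 and 3.32 in Gr1lo, against 2.61, 2.88 and 2.61 in Gr1hi. The groups did not overlap, but the Gr1hi mean of 2.70 lay below 2.77, the highest value of the controls for absent transcripts. Its difference of 0.73 (SE 0.12, limma adjusted p = 5.42e-04) is thus measured against background, and it was 0.06 (0.714) with median centring. A second Orc1 probe set differed by 1.22 and was called. Orc2 (2.46), Orc3 (1.93) and Orc5 (1.83) were higher in Gr1lo by amounts between these. Orc2 was the most variable of the 49 genes within Gr1lo, at 6.12, 7.24 and 5.68, with Gr1lo replicate 2 on top. In Gr1hi it stood at 3.82, 4.06 and 3.76.

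The loading factors differed more. Cdc6, which recruits the helicase to the origin complex, read 9.51, 10.08 and 9.41 in Gr1lo, against 4.90, 4.34 and 4.62 in Gr1hi. Every Gr1lo array exceeded every Gr1hi array by more than 4 log2 units, and the difference was 5.05 (SE 0.23, limma adjusted p = 2.47e-07), or 33.1-fold. Cdt1, its partner in loading, stood at 11.42, 11.61 and 11.38 in Gr1lo, against 8.01, 7.24 and 7.51 in Gr1hi. Gmnn encodes geminin, the inhibitor that binds CDT1 to stop a further round of loading, and it was higher in Gr1lo as well, at 11.19, 11.42 and 11.23, against 7.38, 6.70 and 7.35 in Gr1hi. The 95% intervals of Cdt1 (3.46 to 4.31) and Gmnn (3.71 to 4.56) overlap. This holds for the chosen probe sets: another of Cdt1 differed by 5.53 (mean 9.77 in Gr1lo, 4.24 in Gr1hi), above the interval of Gmnn.

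All 6 genes of the MCM helicase, the ring that unwinds DNA, were higher in Gr1lo, by 3.16 to 6.24. Mcm2 read 9.85, 10.31 and 9.57 in Gr1lo, against 3.95, 3.49 and 3.57 in Gr1hi. That difference of 6.24 (SE 0.23, limma adjusted p = 1.35e-07), or 75.5-fold, was the largest of the 49. Mcm3 came next at 10.45, 10.83 and 10.36 in Gr1lo, against 4.91, 3.84 and 4.37 in Gr1hi, a difference of 6.17 (SE 0.27). Mcm4 had the smallest difference of the ring, at 11.08, 11.35 and 10.95 in Gr1lo, against 8.10, 7.84 and 7.94 in Gr1hi. Its interval (2.86 to 3.47) lay wholly below those of Mcm2 (5.72 to 6.76) and Mcm3 (5.57 to 6.77). Mcm5 (4.27), Mcm6 (4.27) and Mcm7 (3.88) lay between, and their Gr1hi means stayed at 8.26 ± 0.20, 7.45 ± 0.28 and 8.77 ± 0.23 (SD, n = 3).

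The size of these differences depended on the probe set read. Another probe set of Mcm5 differed by 6.01 (9.22 mean in Gr1lo, 3.21 in Gr1hi), another of Mcm6 by 5.84 and another of Mcm7 by 5.78. Smaller values stood beside them, at 1.63 for the remaining probe set of Mcm5 and 0.62 and 1.59 for 2 of the 4 others of Mcm3. The remaining one of Mcm6 differed by -0.03 and was not called (limma adjusted p = 0.816). For the whole set 37 genes had 58 further probe sets, of which 51 passed the filter. Of these 42 were higher in Gr1lo and 1 lower, and 8 were not called, against 30% called higher among the 22695 probe sets tested on their own. In 17 of the 51 the difference was larger than in the chosen probe set. The 1 lower was a dim probe set of Pclaf, at 2.87, 2.64 and 3.21 in Gr1lo, against 3.49, 3.11 and 3.49 in Gr1hi. Its difference was -0.46, while another probe set of Pclaf differed by 5.13. Averaged over each gene's probe sets, the median difference was 3.31 and 47 genes were higher. Of the chosen probe sets, 4 carry the suffix _s_at (Mcm3, Mcm7, Gins2, Rfc4) and 4 _x_at (Mcm5, Pold1, Pold3, Fen1), which mark probes that can match further transcripts.

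**Figure D2:**
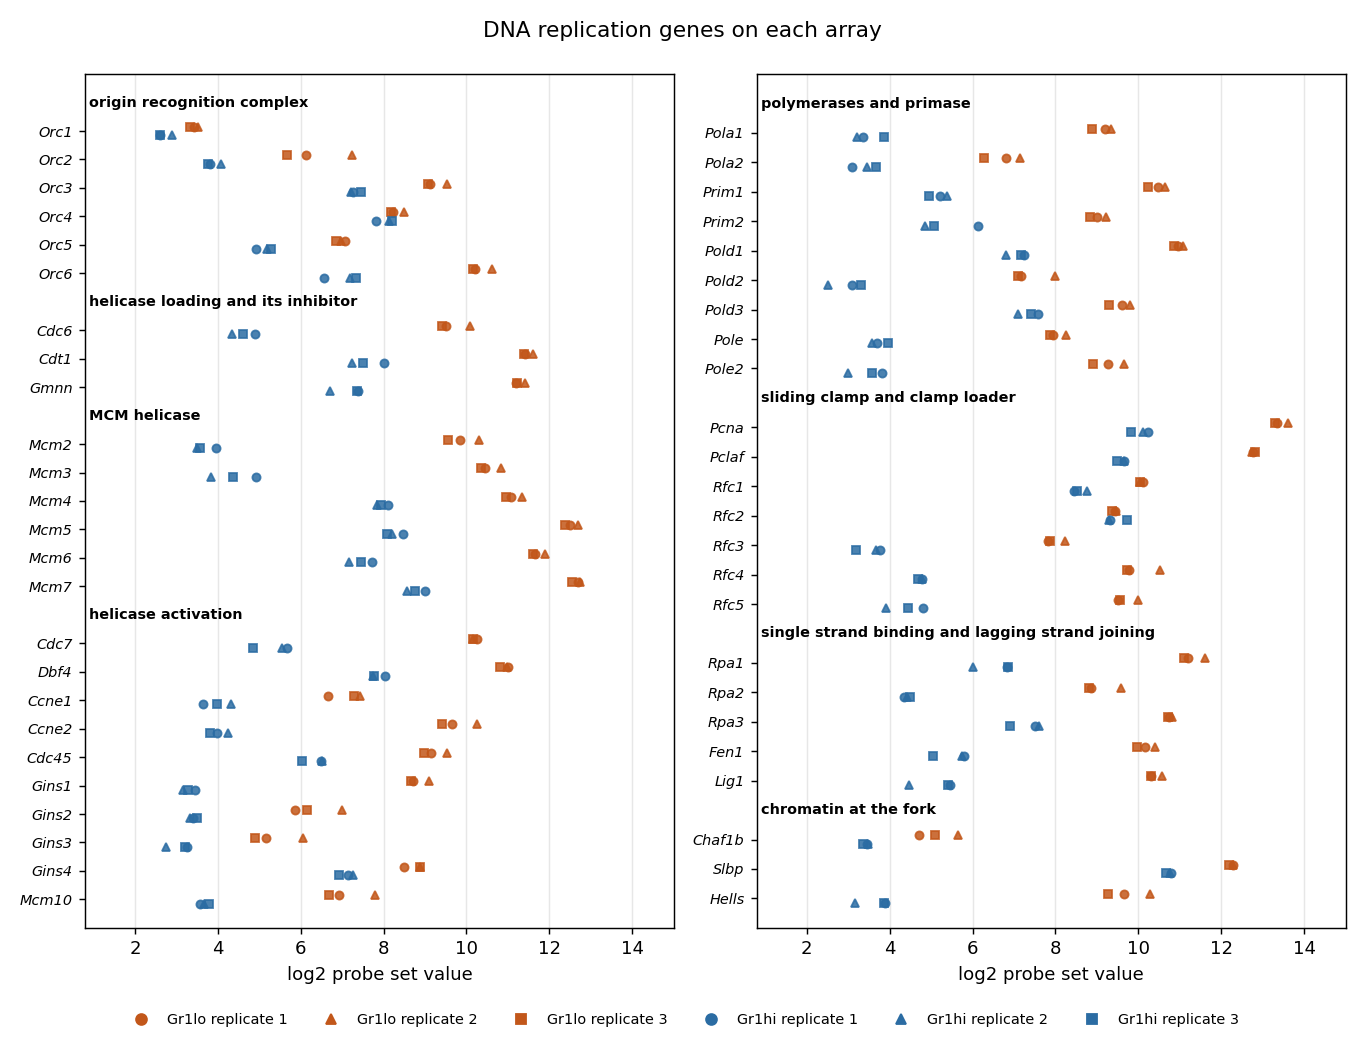
Log2 probe set value (horizontal axis) of each of the 49 replication genes on each array, with Gr1lo arrays in orange above Gr1hi arrays in blue and a marker shape for each replicate. The groups are apart in 47 genes and overlap in Orc4 and Rfc2.

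Helicase activation genes were all higher in Gr1lo (10 of 10), by a median of 3.11. The cyclin E genes, partners of CDK2 in S phase entry, differed in size. Ccne2 read 9.66, 10.26 and 9.41 in Gr1lo, against 3.99, 4.23 and 3.80 in Gr1hi, a difference of 5.77 (95% interval 5.23 to 6.32, limma adjusted p = 1.85e-07). Ccne1 stood at 6.66, 7.44 and 7.28 in Gr1lo, against 3.65, 4.32 and 3.97 in Gr1hi, a difference of 3.14 (95% interval 2.55 to 3.74). Both separated the groups on every array, and their intervals do not overlap. Cdc7, the kinase that phosphorylates the helicase, was higher by 4.82 and its activator Dbf4 by 3.08.

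The 4 GINS genes encode the subunits of a single complex, and their differences ran from 1.64 to 5.53. Gins1 read 8.71, 9.09 and 8.66 in Gr1lo, against 3.44, 3.15 and 3.27 in Gr1hi (difference 5.53, SE 0.20). Gins4 read 8.48, 8.88 and 8.87 in Gr1lo, against 7.14, 7.26 and 6.92 in Gr1hi (difference 1.64, SE 0.17). Both were separate between groups, Gins4 with a Gr1hi level far from background. Gins2 (2.93) and Gins3 (2.30) lay between. A dimmer second probe set of Gins1 (mean 4.11 in Gr1lo, 3.03 in Gr1hi) differed by 1.08, less than Gins4. The order of these genes thus depends on the probe set read. Cdc45, which joins GINS on the helicase, was higher by 2.87, and Mcm10, which helps the assembled helicase start, by 3.46. In the fit over single probe sets, another one was not called for Cdc45 (0.16, limma adjusted p = 0.50) or for Mcm10 (0.05, limma adjusted p = 0.68), where it read at the level of absent transcripts in both groups.

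Polymerase and primase genes were higher in 9 of 9. The primase-polymerase alpha complex starts each strand. Its catalytic gene Pola1 read 9.19, 9.34 and 8.89 in Gr1lo, against 3.34, 3.22 and 3.85 in Gr1hi, a 50.8-fold difference of 5.67 (SE 0.22, limma adjusted p = 1.59e-07). Prim1, the primase catalytic subunit, followed with 5.26, then Prim2 with 3.67 and Pola2 with 3.34. Prim2 was the most variable gene in Gr1hi, where replicate 1 stood at 6.12 and the others at 4.86 and 5.06.

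Polymerase epsilon copies the leading strand. Its subunit gene Pole2 read 9.26, 9.66 and 8.91 in Gr1lo, against 3.82, 3.00 and 3.58 in Gr1hi (difference 5.81, SE 0.27, limma adjusted p = 2.87e-07), and its catalytic gene Pole differed by 4.28. Polymerase delta serves mainly the lagging strand, and its subunits were uneven. Pold1, the catalytic subunit, was higher in Gr1lo by 3.89 and Pold2 by 4.45. Pold3 differed least of the group, at 9.61, 9.80 and 9.28 in Gr1lo, against 7.58, 7.08 and 7.41 in Gr1hi (difference 2.21, SE 0.18).

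Pold4, the smallest subunit of polymerase delta, went the other way. It is not among the 50 genes but on a list of 40 other replication genes. It read 6.56, 6.33 and 6.86 in Gr1lo, against 8.26, 8.23 and 8.08 in Gr1hi. Every Gr1lo array lay below every Gr1hi array, with a difference of -1.60 (SE 0.18, limma adjusted p = 4.40e-05), or 3.04-fold higher in Gr1hi. It was -2.28 with median centring and -1.33 with control centring.

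The sliding clamp PCNA holds polymerases on DNA. Pcna read 13.35, 13.61 and 13.29 in Gr1lo, against 10.24, 10.12 and 9.83 in Gr1hi, a difference of 3.36 (SE 0.12). The values of Gr1hi thus stayed far above the background level while lying clearly below Gr1lo. Pclaf, a small PCNA-binding protein of cycling cells, was the least variable of the 49 genes in Gr1lo, at 12.77, 12.76 and 12.82, against 9.64, 9.66 and 9.48 in Gr1hi (difference 3.18, SE 0.09, limma adjusted p = 1.10e-07).

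The clamp loader RFC, which opens PCNA and places it on DNA, split by subunit. Rfc5 read 9.50, 9.98 and 9.56 in Gr1lo, against 4.80, 3.90 and 4.44 in Gr1hi, a difference of 5.30 (SE 0.25). Rfc4 read 9.77, 10.53 and 9.73 in Gr1lo, against 4.77, 4.77 and 4.69 in Gr1hi, a difference of 5.27 (SE 0.22). Rfc3 was higher by 4.43, and these 3 genes were at least 20-fold higher in Gr1lo. Rfc1, the large subunit, differed by only 1.49 (10.11, 10.04 and 10.05 in Gr1lo, against 8.45, 8.75 and 8.53 in Gr1hi).

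Rfc2 did not differ detectably. It read 9.43, 9.47 and 9.36 in Gr1lo, against 9.32, 9.30 and 9.72 in Gr1hi. The groups overlapped, with a difference of -0.03 (95% interval -0.34 to 0.28, limma adjusted p = 0.888). The interval excludes the differences of Rfc1, Rfc3, Rfc4 and Rfc5. Its 2 other probe sets differed by 0.21 and 0.25 and were not called. With median centring Rfc2 was lower in Gr1lo (difference -0.70, limma adjusted p = 6.76e-04), while the median of all tested genes was -0.70 as well.

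**Figure D3:**
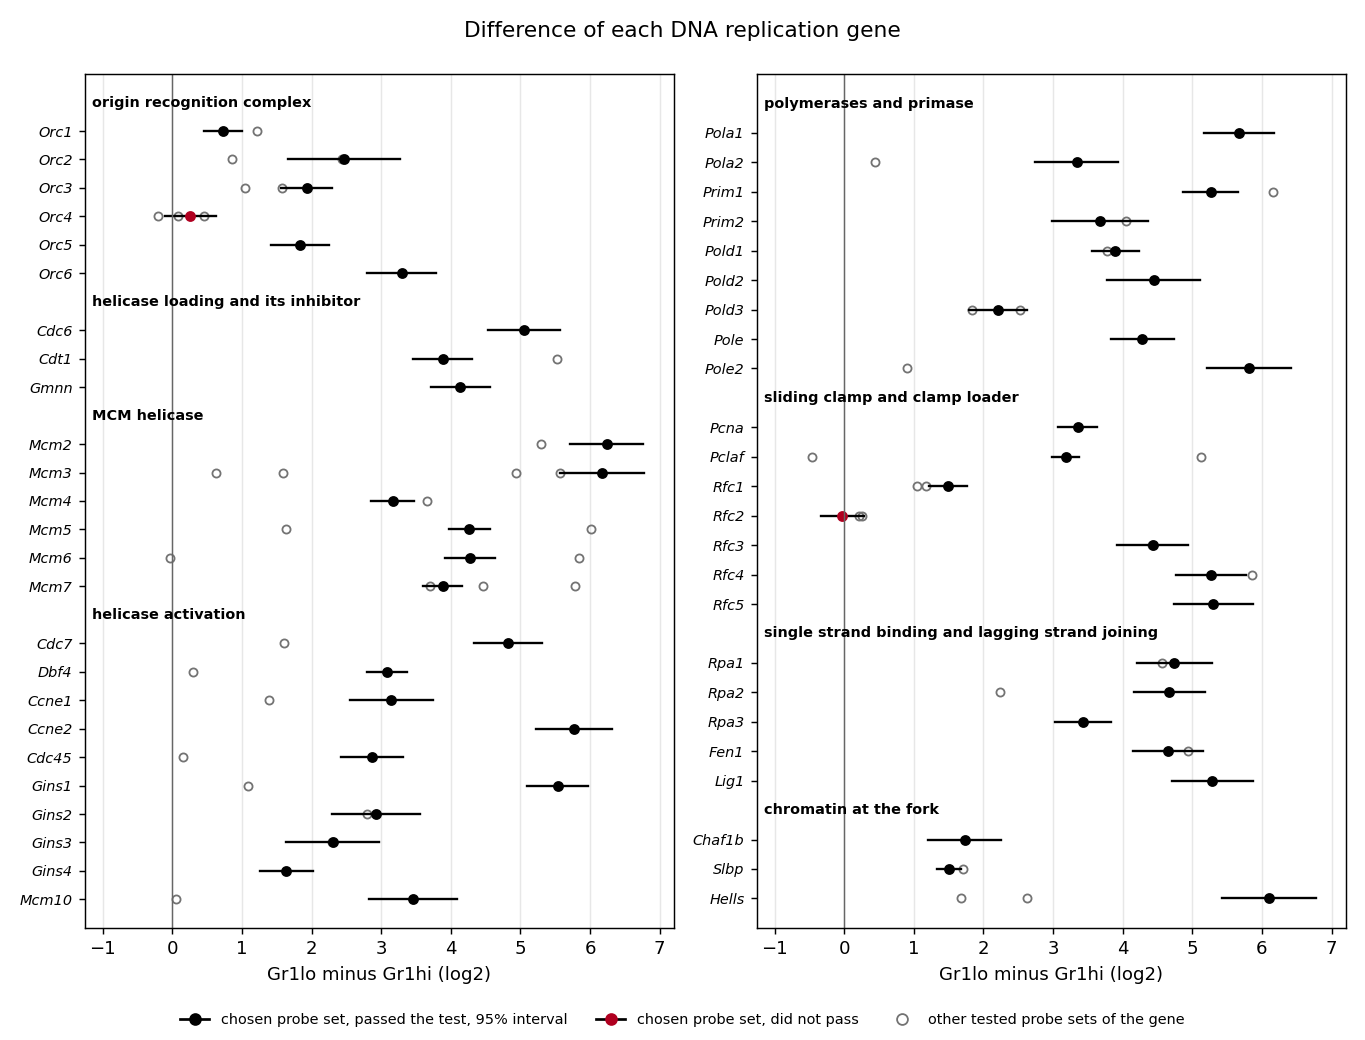
Difference of each of the 49 replication genes between Gr1lo and Gr1hi cells (horizontal axis, Gr1lo minus Gr1hi, log2), as filled circles with 95% intervals from limma, in red where the test was not passed, and with open circles for the gene's other tested probe sets. Within the origin, GINS and clamp loader complexes, the chosen probe sets of the subunits spread from near 0 or 1.64 to as much as 5.53.

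Genes of single strand binding and of Okazaki fragment joining were all higher (5 of 5), by a median of 4.67. Lig1, the ligase that seals the fragments, read 10.32, 10.57 and 10.31 in Gr1lo, against 5.46, 4.47 and 5.42 in Gr1hi, a 39.1-fold difference of 5.29 (SE 0.26, limma adjusted p = 3.47e-07). Fen1, the nuclease that trims their ends, was higher by 4.65. Of the RPA genes, whose product coats single strands, Rpa1 differed by 4.74 and Rpa2 by 4.67. Rpa3 had the smallest difference of this group, at 10.75, 10.82 and 10.73 in Gr1lo, against 7.50, 7.60 and 6.91 in Gr1hi (difference 3.43, SE 0.18). No group overlapped in any of these genes.

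Chromatin genes of the fork were higher in 3 of 3 tested. Hells, a chromatin remodeller linked to DNA methylation, read 9.66, 10.29 and 9.27 in Gr1lo, against 3.89, 3.16 and 3.87 in Gr1hi, a 68.7-fold difference of 6.10 (SE 0.30, limma adjusted p = 3.36e-07). Slbp, which binds the stem-loop of histone mRNAs, differed least, at 12.27, 12.29 and 12.19 in Gr1lo, against 10.80, 10.75 and 10.67 in Gr1hi. Its difference of 1.51 (limma adjusted p = 4.84e-07) had the smallest SE of the 49, at 0.08. Chaf1b, of the CAF-1 chaperone, was higher by 1.73.

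Gr1lo replicate 2 stood above its group in most of these genes. It was the highest Gr1lo array in 44 of the 49, against 36.8% of all tested genes. The exceptions were Orc5, Cdc7, Dbf4 and Rfc1, highest in replicate 1, and Pclaf, highest in replicate 3. The median gene lay 0.35 above the mean of the other Gr1lo arrays there, while the median of all tested genes lay at -0.00. In Gr1hi, replicate 1 was highest in 25 of 49 genes, against 30.3% of all tested genes. Without Gr1lo replicate 2 the median difference of the 49 genes was 3.81 and 47 were higher. Genes of early granules followed the same arrays. Elane (12.02), Mpo (14.07) and Prtn3 (13.67) were at their Gr1lo maximum on replicate 2 and, at 5.27, 10.62 and 9.56, at their Gr1hi maximum on replicate 1. Csf3r, the receptor of the granulocyte growth factor G-CSF, was at its Gr1lo minimum on replicate 2 (9.27). In Gr1hi, however, Csf3r was at its maximum on replicate 1 (12.43), as the early granule genes were. Of the 9 summed marker lists described below, B lineage (6.56) and eosinophil (8.76) were at their Gr1lo maximum there, monocyte and macrophage (10.01) and T and NK (5.26) at their Gr1lo minimum, and the other 5 between. The part of such cells in the higher values of these arrays was not tested. Replicate scatter, as the median SD, was 0.23 for the 49 genes within Gr1lo and 0.24 within Gr1hi, against 0.15 for all tested genes in either.

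**Figure D4:**
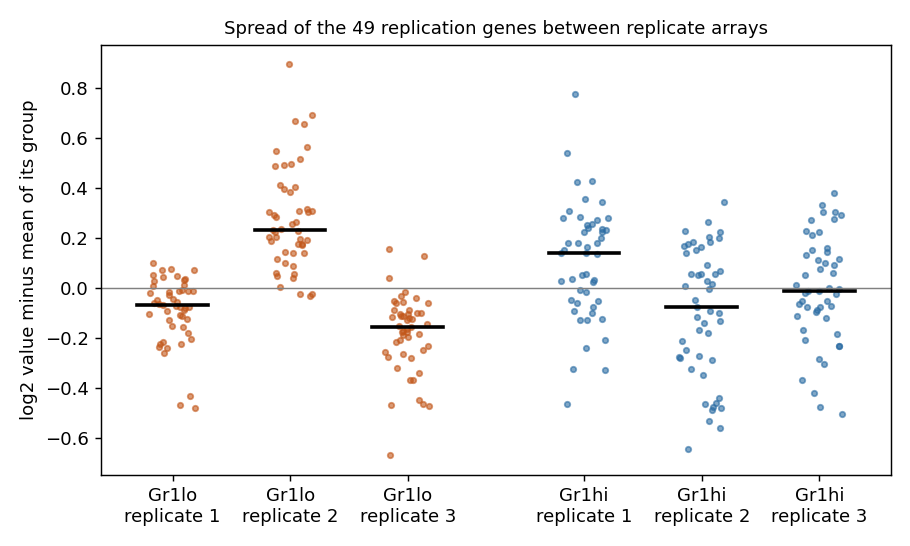
Deviation of each of the 49 replication genes from the mean of its group on each array (vertical axis, log2), as points, with black bars at the medians. Gr1lo replicate 2 lies above 0 for nearly all genes, whereas the Gr1hi arrays scatter on both sides.

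Further genes of the pathway gave a like picture. The list of 40 other replication genes, also chosen with earlier results of these data known, had 39 tested (Ssrp1 is not analysed here). Of these 38 were higher and 1, Pold4, was lower in Gr1lo, against 31.8% and 24.6% of all tested genes. Their median difference was 3.13. Donson counts among the higher genes (1.93), but another of its probe sets was called lower in Gr1lo (-0.56). With median centring 33 of the 39 were higher, against 18.2% of all tested genes. In a test against a 1.5-fold difference 33 were higher too, against 2419 of the 12732 tested genes. The genes no longer called higher in both were Top1, Mcmbp, Recql4, Lrwd1 and Rnaseh2c. With median centring Top1 was called lower in Gr1lo (limma adjusted p = 0.0314). The largest were in Skp2, a ubiquitin ligase subunit that acts on CDT1 and on CDK inhibitors (9.89, 10.39 and 9.73 in Gr1lo, against 4.71, 4.15 and 3.68 in Gr1hi). That difference was 5.82 (limma adjusted p = 3.22e-07). Atad5, which unloads PCNA, read 9.34, 9.45 and 9.19 in Gr1lo, against 3.96, 3.08 and 3.92 in Gr1hi, a difference of 5.67. Wdhd1, which couples polymerase alpha to the helicase, read 9.44, 9.52 and 9.27 in Gr1lo, against 4.03, 3.60 and 4.26 in Gr1hi, a difference of 5.45. The smallest called were in Top1, a topoisomerase (0.37, limma adjusted p = 0.012), and Mcmbp, an MCM-binding protein (0.49, limma adjusted p = 0.00497). Both turned below 0 with median centring, at -0.31 and -0.19, and both lost the call without the replicate 1 arrays (limma adjusted p = 0.087 and 0.0692) and on averaging their probe sets (0.03 and 0.18).

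Markers of other cells were read beside these values. Of 8 B lineage genes 7 were measured, and their summed level ran from 6.40 to 6.56 in Gr1lo and from 6.31 to 6.66 in Gr1hi (log2 of the sum), with 1 higher and 3 lower in Gr1lo. Of 9 erythroid genes 7 were measured, with sums of 5.81 to 5.91 in Gr1lo and 5.21 to 5.43 in Gr1hi, and 5 of the 7, Klf1 and Alas2 among them, were at the level of absent transcripts in both groups. Hemgn was the erythroid gene called, with a mean of 4.60 in Gr1lo and of 2.64, at the level of absent transcripts, in Gr1hi. Stem and progenitor genes (6 of 6 measured, 2 higher, 0 lower) summed to 8.36 to 8.84 in Gr1lo and 6.77 to 7.22 in Gr1hi. There Kit (1.94) and Hlf (0.86) were higher and Cd34 and Flt3 were at the level of absent transcripts. Meis1 (-0.22) and Gata2 (-0.20) were not called, and another probe set of Gata2 was called lower in Gr1lo (-0.47). Monocyte and macrophage genes (10 of 10 measured, 1 higher, 2 lower) summed to 10.01 to 11.06 in Gr1lo and 11.94 to 12.26 in Gr1hi. Most of the Gr1hi sum was Csf1r, averaging 7.78 in Gr1lo against 11.78 in Gr1hi. Adgre1 was lower in Gr1lo too (-2.99), F13a1 was higher (0.98), and the 6 not called ranged from -0.72 (Ccr2) to 1.00 (Klf4). T and NK genes (6 of 8 measured, 0 higher, 2 lower) summed to 5.26 to 5.87 in Gr1lo and 8.51 to 8.77 in Gr1hi. Cd3d alone set that sum apart, averaging 4.32 in Gr1lo against 8.49 in Gr1hi. Cd3e, Cd3g and Ncr1 were at the level of absent transcripts in both groups, and the means of Lat and Eomes were at that level in Gr1lo and at 2.82 and 2.87 in Gr1hi. Megakaryocyte genes (5 of 5 measured, 1 higher, 1 lower) summed to 6.05 to 6.19 in Gr1lo and 5.59 to 5.82 in Gr1hi. Eosinophil genes (4 of 4 measured, none called) summed to 8.21 to 8.76 in Gr1lo and 8.20 to 8.45 in Gr1hi. Basophil and mast cell genes (4 of 5 measured, 1 higher) summed to 6.37 to 8.02 in Gr1lo and 4.99 to 8.15 in Gr1hi, so that these groups overlapped. Neutrophil and sort genes (10 of 10 measured, 3 higher, 3 lower) summed to 17.07 to 17.14 in Gr1lo and 16.91 to 16.99 in Gr1hi. The part of such cells in the replication gene result was not tested.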

How the data were processed

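Values are log2 probe set values as deposited. The authors made them with GCRMA, per the submitters' processing notes, in a version not stated there. The table holds 45101 probe sets, without missing values or detection calls; controls of absent transcripts read up to 2.77. The number of arrays limits precision.

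Probe sets were named by the platform annotation, leaving 34945 with 1 symbol. Genes above the 40th percentile of an array on 3 or more of the 6 were kept. limma 3.58.1 (R 4.3.3; lmFit, then eBayes with an intensity trend) tested Gr1lo minus Gr1hi, two-sided, adjusted by Benjamini-Hochberg across 12732 genes, after a test on simulated data; SE and 95% intervals come from that fit. The members and lists were chosen with earlier results of these data known. Values of each array are given for the largest and smallest differences of each role, the 10 largest, those not called or contradicted by another probe set, and some further members chosen after their values were seen. Alternatives changed the filter, probe set choice, limma settings, scaling, replicate block, threshold and arrays included. Promoters come from RefSeq tables of GRCm38.p6. Figures used Python 3.11.15 and matplotlib 3.10.9.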

Additional observations from a re-analysis of the deposited data

How the results depend on the processing

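The 47 higher genes stayed between 46 and 48 under every alternative run, the gene lost at 46 being Orc1, and each array left out in turn gave 47. The count of lower genes was 0 except 2 with median centring, where the other replication genes had 33 higher and 2 lower, against 38 and 1. The median difference was 3.21 with that centring, 3.31 on averaging each gene's probe sets, and 3.71 to 4.001 with an array left out. Over all genes, 4051 higher and 3126 lower became 2316 and 8344 with that centring (21.7% against 56.4% of calls higher), 4859 and 1801 with control centring (73.0%), 2419 and 1355 in the test against a 1.5-fold difference, and 6804 and 5947 over single probe sets. Reversed with the median centring were Orc4 (-0.42), Mcmbp (-0.19) and Top1 (-0.31), by the construction of the shift. Same-numbered arrays correlated in their deviations by 0.17, 0.00 and 0.15 across genes, and arrays of unlike number by -0.19 to 0.04. The highest values were those of replicates 1 and 3. Pairing by number is thus possible, and the main fit did not use it. With the replicate number as a block, 47 of the 49 were higher, with 4020 higher and 3036 lower over all genes.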
